A study of Rattus norvegicus with 9 samples.

Results

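The 7 heat shock genes Hspb1, Hspa1a, Hspa1b, Hspa8, Dnajb1, Hsph1 and Hsf1 were chosen by symbol, and all 7 were present among the 17315 genes of the count tables. Each also passed the filter on low counts, which left 10128 genes for testing. RNA was sequenced from horizontal basal cells of SD rats, grown as a primary culture from dissociated olfactory epithelium and used at passage 7. The 3 groups of 3 libraries each were vehicle (0.1% DMSO, labelled time 0), 6 h in 50 nM PMA (phorbol 12-myristate 13-acetate) and 12 h in 50 nM PMA. PMA is a phorbol ester that activates protein kinase C, and the submitters used it to activate these cells, which rest as a reserve stem cell pool beneath the olfactory neurons. All groups came from the same kind of culture, and no vehicle library was labelled with 6 h or 12 h, so PMA and time in culture cannot be told apart. Whether libraries of 1 group stem from different cultures or rats is not labelled, so every p-value measures only the spread between these libraries, which may be technical.

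Heat shock proteins are chaperones that hold unfolding proteins in solution or help them to refold. Hspb1, also called Hsp27 or Hsp25, is a small heat shock protein that binds unfolding proteins without using ATP. The kinase MK2 phosphorylates it downstream of p38, and it is also known for its action on actin filaments and for its presence in stratified epithelia. The Hsp70 proteins (the inducible Hspa1a and Hspa1b and the constitutive Hspa8) bind clients in an ATP-driven cycle. In this cycle the J-domain protein Dnajb1 stimulates ATP hydrolysis and the Hsp110 protein Hsph1 exchanges the nucleotide. Hsf1 is the transcription factor that trimerizes under proteotoxic stress and binds heat shock elements in the promoters of many of these genes.

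The heat shock genes did not move together. After 6 h in PMA, Hspb1 was 6.94-fold above vehicle, the summed Hspa1a and Hspa1b 7.84-fold, Hsph1 3.27-fold, Dnajb1 2.83-fold and Hspa8 1.54-fold, and Hsf1 was lower. At 12 h Hspb1 was within the range of the vehicle libraries again, whereas the Hspa1a and Hspa1b sum had climbed to 17.7-fold above vehicle. A gene was called when its adjusted p was under 0.05 in edgeR (quasi-likelihood F test, Benjamini-Hochberg adjustment over all tested genes). At 6 h against vehicle 6 of the 7 genes rose and 1 fell, in a comparison that called 76.8% of all tested genes, 37.8% higher and 39.0% lower. At 12 h against vehicle 5 rose and 0 fell (4 and 1 with upper-quartile scaling, 3 and 2 with no normalization), with 75.8% of all genes called (37.7% higher, 38.2% lower). From 6 h to 12 h 3 rose and 4 fell, with 51.1% of all genes called (25.3% higher, 25.8% lower). Most genes in the cells were called in each comparison, so a call by itself says little about these 7, and the sizes and the time courses carry the description.

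**Figure D1:**
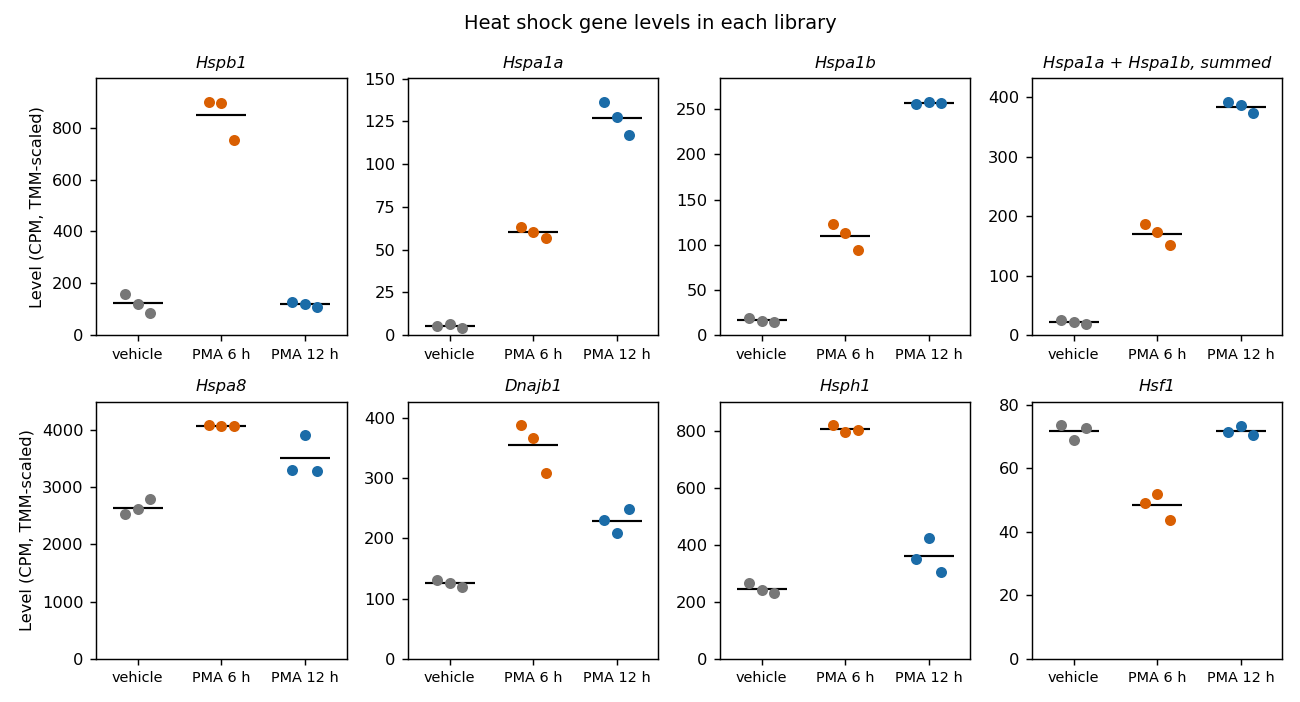
Level of each heat shock gene in each library, in CPM (counts relative to the TMM-scaled library total), by group, with each axis starting at 0. Points are libraries and black lines are group means (n = 3). Hspb1 averaged 122 CPM in vehicle, 851 CPM at 6 h and 119 CPM at 12 h, while the Hspa1a and Hspa1b sum averaged 21.7, 170 and 384 CPM at the same times.

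Libraries held 13601635 to 19001819 reads in genes, and no library was a copy of another. TMM scaling, which sets the balance between the libraries, used factors of 1.29 to 1.31 in vehicle, 0.879 to 0.911 at 6 h and 0.848 to 0.880 at 12 h. The factors move with the groups, so every difference from vehicle depends on the scaling more than a difference between 6 h and 12 h does. Of the 6 markers of horizontal basal cells, all were detected, and their summed level was 14800 to 17000 CPM in vehicle, 2450 to 2960 CPM at 6 h and 3850 to 4490 CPM at 12 h. Krt5 averaged 6830 CPM in vehicle, 402 CPM at 6 h and 489 CPM at 12 h. Krt5 and Krt14 make up much of that sum, and Icam1, on the same list, averaged 143 CPM in vehicle, 176 CPM at 6 h and 359 CPM at 12 h and was called higher at both times against vehicle (adjusted p = 0.0085 and 1.2e-09). Of 10 markers of the neuronal lineage, 7 stayed under 1 CPM in every library, and the sums were 6.95 to 9.75 CPM in vehicle, 6.71 to 8.30 CPM at 6 h and 6.53 to 11.8 CPM at 12 h. Within that sum Ncam1 averaged 0.254 CPM in vehicle, 0.616 CPM at 6 h and 1.53 CPM at 12 h (called higher at 12 h against vehicle, adjusted p = 0.00053). Tubb3 averaged 6.25, 3.55 and 4.81 CPM in the same order and was called lower at 6 h (adjusted p = 0.014). The sustentacular markers Cyp2g1, Cyp1a2 and Ermn were at 0 in all 9 libraries. The sum of the 7 sustentacular and gland markers in the tables, led by Krt8, was 1210 to 1420 CPM in vehicle, 1950 to 2020 CPM at 6 h and 2190 to 2530 CPM at 12 h. Sox2, on the same list, was called lower at both times against vehicle, at 2.93 CPM in vehicle, 0.716 CPM at 6 h and 1.46 CPM at 12 h (adjusted p = 0.00028 and 0.028). The leukocyte marker Ptprc was at 0 in every library. The 6 immune markers summed to 26.7 to 29.2 CPM in vehicle, 70.4 to 72.8 CPM at 6 h and 83.6 to 95.7 CPM at 12 h. Cd68 averaged 19.6 CPM in vehicle, 69.4 CPM at 6 h and 85.6 CPM at 12 h, whereas Cd14 averaged 7.80, 1.48 and 3.26 CPM in the same order and was called lower at both times against vehicle (adjusted p = 3.8e-07 and 0.00023). The part of these marker shifts in the heat shock results was not tested, and in bulk RNA fewer cells of a type and less RNA per cell cannot be told apart.

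The promoters of these genes are shown because the heat shock element, built from GAA and TTC units in alternating orientation, is the known binding site of Hsf1. RefSeq promoter sequences of the GRCr8 assembly were matched for 5 of the 7 genes, and the 250 bases before each start were searched on both strands. The motif of 3 units was GAANNTTCNNGAA or TTCNNGAANNTTC, found in 222 of 33469 promoters (0.663%). The motif of 2 units was GAANNTTC or TTCNNGAA, found in 4534 (13.5%), and each match of 3 units also holds 2 overlapping matches of 2 units. Capitals mark the matches, and each line runs 5′ to 3′ on the gene's own strand.
Hspb1: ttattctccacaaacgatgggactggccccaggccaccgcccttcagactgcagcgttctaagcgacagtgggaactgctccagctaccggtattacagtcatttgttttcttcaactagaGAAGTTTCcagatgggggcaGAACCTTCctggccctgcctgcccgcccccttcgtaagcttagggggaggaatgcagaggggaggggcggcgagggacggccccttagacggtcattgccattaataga
Dnajb1: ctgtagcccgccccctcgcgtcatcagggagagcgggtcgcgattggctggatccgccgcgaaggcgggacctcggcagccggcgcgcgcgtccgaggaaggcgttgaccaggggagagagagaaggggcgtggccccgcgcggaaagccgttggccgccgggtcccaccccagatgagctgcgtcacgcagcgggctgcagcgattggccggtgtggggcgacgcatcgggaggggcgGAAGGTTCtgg
Hsph1: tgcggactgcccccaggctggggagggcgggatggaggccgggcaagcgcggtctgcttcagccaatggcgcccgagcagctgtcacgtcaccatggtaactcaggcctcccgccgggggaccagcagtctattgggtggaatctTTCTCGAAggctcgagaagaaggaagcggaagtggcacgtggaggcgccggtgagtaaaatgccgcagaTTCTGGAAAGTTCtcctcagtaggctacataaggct
Hspa8: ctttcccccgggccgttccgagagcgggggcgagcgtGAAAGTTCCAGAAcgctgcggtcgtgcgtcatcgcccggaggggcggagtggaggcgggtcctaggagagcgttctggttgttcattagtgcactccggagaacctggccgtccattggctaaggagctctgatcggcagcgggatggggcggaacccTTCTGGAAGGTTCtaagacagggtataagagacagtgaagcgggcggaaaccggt
The windows lie at chr12:26432302-26432551 for Hspb1, chr19:41431142-41431391 for Dnajb1, chr12:10427118-10427367 for Hsph1 and chr8:50080264-50080513 for Hspa8. Hspb1 held 2 separate matches of 2 units, at 129 to 122 and 109 to 102 bases before the start, and none of 3 units. Dnajb1 held 1 match of 2 units at 11 to 4 bases before its start. Hsph1 held 1 match of 3 units at 36 to 24 bases before the start and a further match of 2 units at 105 to 98 bases. Hspa8 held 2 matches of 3 units, at 213 to 201 and at 55 to 43 bases before the start. The window of Hspa1a held no match of either motif, which says only that these letters are not in those 250 bases. A match is a description of the sequence and not a measured site: binding of Hsf1 was not measured.

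Hspb1 had the largest fall from 6 h to 12 h among these genes. Its level was 901, 897 and 755 CPM in the libraries at 6 h, against 160, 120 and 86.6 CPM in vehicle, a log2 fold change of 2.80 ± 0.21 (SE, adjusted p = 2.2e-06). Every library at 6 h lay far above every vehicle library, and the vehicle libraries varied most among themselves, with the highest at 1.85 times the lowest and a coefficient of variation of 30.2%. At 12 h the level was 127, 118 and 110 CPM, and these 3 libraries all lay inside the range of the vehicle libraries. The log2 fold change at 12 h against vehicle was -0.05 ± 0.20 (adjusted p = 0.84), with a 95% interval of -0.50 to 0.41, and the interval holds differences in both directions. Without normalization it was called lower, at -0.63 (adjusted p = 0.021). From 6 h to 12 h Hspb1 was 7.17-fold lower at 12 h, a log2 fold change of -2.84 ± 0.21 (adjusted p = 7.2e-06), and in rank it was the 29th lowest of the 10128 genes in this comparison. Leaving out 1 library at a time moved the difference at 6 h between 2.60 (without vehicle replicate 3) and 3.03 (without vehicle replicate 1) on the log2 scale.

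The inducible Hsp70 genes Hspa1a and Hspa1b behaved differently from Hspb1: both rose at 6 h and rose again by 12 h. Their protein-coding sequences are nearly identical, so reads cannot always be assigned to the right copy and reads that fit both are counted as multimapping, which took 5.95% to 7.74% of reads per library. The sum of both is the firmer value, though the reads lost to multimapping are missing from it too. The sum was 186, 173 and 151 CPM at 6 h, against 24.6, 21.5 and 18.8 CPM in vehicle, with a log2 fold change of 2.97 ± 0.10 (adjusted p = 3.7e-14). At 12 h it was 392, 386 and 374 CPM, a log2 fold change over vehicle of 4.15 ± 0.10 (adjusted p = 1.6e-15) and over 6 h of 1.17 ± 0.09 (adjusted p = 2.3e-08), which is 2.26-fold. The groups did not overlap in any of the 3 comparisons, which was so for 79.0% of all tested genes at 6 h against vehicle, 78.7% at 12 h against vehicle and 58.0% at 12 h against 6 h.

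Taken as separate rows, Hspa1a was at 5.48, 6.40 and 4.41 CPM in vehicle, 63.1, 60.5 and 56.7 CPM at 6 h and 136, 128 and 117 CPM at 12 h. Hspa1b was at 19.2, 15.1 and 14.4 CPM in vehicle, 123, 113 and 94.6 CPM at 6 h and 256, 258 and 257 CPM at 12 h. Both rows have the same order of groups, without overlap. The log2 fold changes of Hspa1a were 3.46 ± 0.12 at 6 h against vehicle (adjusted p = 5.9e-14), 4.54 ± 0.12 at 12 h against vehicle (adjusted p = 3.5e-15) and 1.08 ± 0.10 from 6 h to 12 h (adjusted p = 1.9e-07). Those of Hspa1b were 2.76 ± 0.11 (adjusted p = 8.6e-13), 3.98 ± 0.12 (adjusted p = 1.5e-14) and 1.22 ± 0.10 (adjusted p = 7e-08) in the same order. The share of Hspa1a in the reads of the pair was 22.2%, 29.7% and 23.5% in vehicle, 33.9%, 34.8% and 37.5% at 6 h and 34.8%, 33.1% and 31.2% at 12 h. The shares in vehicle were all below those in PMA, and the 95% exact (Clopper-Pearson) interval of the highest vehicle share, 25.8% to 34.0%, reached into the range at both times. These intervals cover counting error only, and the reads are not independent molecules. Hspa1a also differed from the others in the balance of its strands: the first strand column held 30.9% to 37.3% of its strand-assigned reads in vehicle, 45.7% to 49.9% at 6 h and 43.3% to 47.4% at 12 h. The other 6 genes stood at 44.8% to 53.7% in all libraries, and all genes together at 50.0%. In RefSeq's GRCr8 annotation Hspa1a overlaps Hspa1l, and the part of that overlap in the low vehicle values was not tested.

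The constitutive Hsp70 gene Hspa8, which also uncoats clathrin vesicles, had the smallest fold changes among the chaperones of the set at 6 h against vehicle and from 6 h to 12 h. Its level was 4073, 4064 and 4070 CPM at 6 h, against 2524.5, 2608 and 2788 CPM in vehicle (log2 fold change 0.62 ± 0.08, adjusted p = 1.7e-06, but 0.09 and not called without normalization). The libraries at 6 h lay within a ratio of 1.002 of each other and above every vehicle library. At 12 h the level was 3304, 3903 and 3285 CPM, still above every vehicle library (0.41 ± 0.08, adjusted p = 2e-04). That call was lost with upper-quartile scaling and with no normalization. The libraries at 12 h lay below every library at 6 h (-0.22 ± 0.08, adjusted p = 0.031). The fall between the times was not called when PMA 6 h replicate 1, 2 or 3 or PMA 12 h replicate 1 or 3 was left out, with adjusted p of 0.057 to 0.14. RefSeq lists 33 Hspa8 pseudogenes in the GRCr8 assembly, and reads shared with such copies would be counted as multimapping, so the Hspa8 level is uncertain to that extent.

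The co-chaperones of Hsp70 were highest at 6 h and lay between 6 h and vehicle at 12 h. Dnajb1, which delivers clients to Hsp70, was at 131, 125 and 120 CPM in vehicle, 387, 366 and 309 CPM at 6 h and 231, 208 and 249 CPM at 12 h. The 3 groups were ordered without overlap, with 12 h between vehicle and 6 h. The log2 fold changes were 1.499 ± 0.09 at 6 h (adjusted p = 7.6e-11) and 0.87 ± 0.09 at 12 h (adjusted p = 1e-07) against vehicle, and -0.63 ± 0.09 from 6 h to 12 h (adjusted p = 1.6e-05). Hsph1, the nucleotide exchange factor, was at 266, 242 and 233 CPM in vehicle, 820, 796 and 804 CPM at 6 h and 352, 424 and 306 CPM at 12 h. Its libraries at 6 h were close together and those at 12 h spread over a ratio of 1.38, and again no groups overlapped. Hsph1 changed by 1.71 ± 0.10 at 6 h against vehicle (adjusted p = 6.3e-11), by 0.55 ± 0.10 at 12 h against vehicle (adjusted p = 7.2e-05, not called without normalization) and by -1.16 ± 0.10 from 6 h to 12 h (adjusted p = 6.8e-08).

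The transcript of the regulator Hsf1 went the other way from Hspb1. It was at 49.2, 51.9 and 43.8 CPM at 6 h, against 73.5, 68.8 and 72.6 CPM in vehicle, a log2 fold change of -0.57 ± 0.09 (adjusted p = 1e-05). At 12 h it was at 71.4, 73.4 and 70.4 CPM, which overlapped with vehicle under TMM. It was called lower with upper-quartile scaling and with no normalization. The difference from vehicle at 12 h was 0.00 ± 0.08 (adjusted p = 0.98) with a 95% interval of -0.18 to 0.18, and from 6 h to 12 h Hsf1 rose by 0.57 ± 0.09 (adjusted p = 3.3e-05). These are transcript levels: the activity of the Hsf1 protein, which is set largely by its trimerization and phosphorylation, was not measured.

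**Figure D2:**
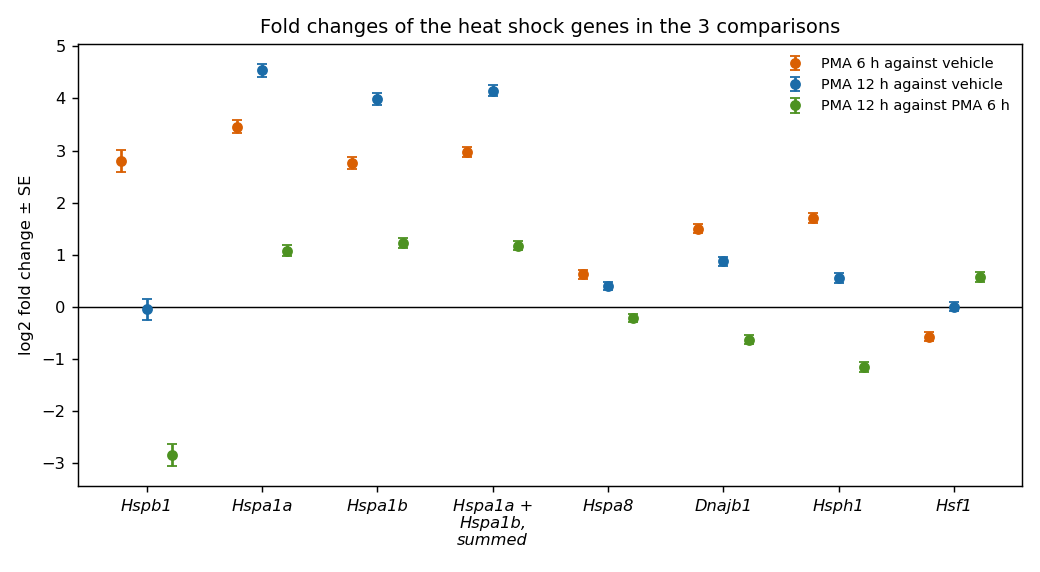
log2 fold changes ± SE (edgeR, n = 3 libraries per group) of the heat shock genes in the 3 comparisons, with 0 marking no difference. Hspb1 is at 2.80, -0.05 and -2.84 in the 3 comparisons, and the Hspa1a and Hspa1b sum is above 0 in all of them.

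Read as time courses, Hspb1 rose at 6 h, fell again and was not called at 12 h, a course shared by 472 of the 10128 tested genes (4.66%). Dnajb1, Hsph1 and Hspa8 rose at 6 h, fell back in part and were still higher at 12 h, as 903 genes were (8.92%). Hspa1a and Hspa1b rose in both steps, as 749 genes did (7.40%). Hsf1 fell at 6 h, rose again and was not called at 12 h, as 453 genes were (4.47%). These percentages describe how common each combination of calls is.

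Ratios inside a library do not depend on how libraries are scaled. Of the summed reads of the 7 genes, Hspb1 held 2.61% to 5.04% in vehicle, 12.3% to 14.1% at 6 h and 2.31% to 2.84% at 12 h. The Hspa1a and Hspa1b pair held 0.567% to 0.775% in vehicle, 2.47% to 2.90% at 6 h and 7.55% to 8.76% at 12 h. The share of Hspa8 was 79.4% to 84.0% in vehicle, 63.5% to 66.4% at 6 h and 73.8% to 76.3% at 12 h, and that of Hsf1 2.16% to 2.31%, 0.714% to 0.817% and 1.43% to 1.60% at the same times. The share of Hsph1 was 7.01% to 8.37% in vehicle, 12.5% to 13.1% at 6 h and 6.97% to 8.29% at 12 h, and that of Dnajb1 3.62% to 4.10%, 5.04% to 6.04% and 4.07% to 5.66%. At 6 h all of these shares lay outside their vehicle range. At 12 h those of the Hspa1a and Hspa1b pair, Hspa8 and Hsf1 still did, and those of Hspb1, Hsph1 and Dnajb1 overlapped with vehicle. A share also depends on transcript length and on the other genes of the set, so it is read here across groups and not between genes.

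The scaling of the libraries decides the smaller differences from vehicle. Against the TMM values, upper-quartile scaling shifted the median log2 fold change of all genes by -0.26 at 6 h and by -0.27 at 12 h, and no normalization beyond the library totals by -0.54 and -0.58. DESeq2 size factors stayed close to TMM, with shifts of 0.004 and -3.3e-05. Under them Hspa8 and Hsf1 at 12 h against vehicle were 0.41 and 0.003. A change of scaling shifts every gene by nearly the same amount, so taking off the median of all genes removes it by construction. The spread left over 4 scalings, at most 0.0069 on the log2 scale, therefore says nothing about these genes in particular. Relative to the median Hspb1 was at 2.83 at 6 h and -0.03 at 12 h against vehicle. Without normalization Hspa8 was no longer called at 6 h (0.09, adjusted p = 0.33). At 12 h Hspb1 and Hsf1 were called lower (-0.63, adjusted p = 0.021, and -0.58, adjusted p = 6.6e-06) and Hsph1 and Hspa8 were not called (-0.03 and -0.17). With upper-quartile scaling Hspa8 was not called at 12 h (0.14, adjusted p = 0.13) and Hsf1 was called lower (-0.27, adjusted p = 0.0085), so that 4 genes were higher and 1 lower at 12 h. Over all genes the calls at 6 h against vehicle were 3831 higher and 3945 lower with TMM, 3023 and 4837 with upper-quartile scaling and 2277 and 5855 with no normalization. The rises of Hspb1, Hspa1a, Hspa1b, Dnajb1 and Hsph1 and the fall of Hsf1 at 6 h were called under each of these scalings. So were the rises of Hspa1a, Hspa1b and Dnajb1 at 12 h and all 7 calls from 6 h to 12 h.

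**Figure D3:**
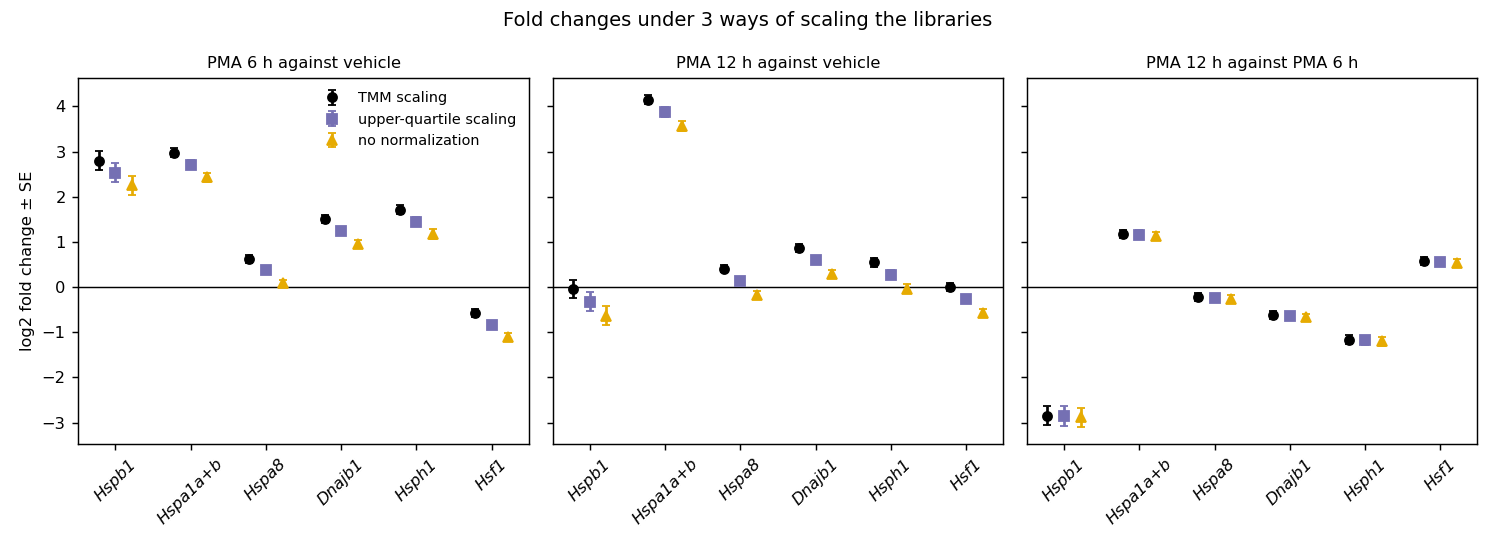
log2 fold changes ± SE of the heat shock genes under TMM scaling (circles), upper-quartile scaling (squares) and no normalization (triangles), in the 3 comparisons. Values against vehicle drop by about the same amount for every gene, and Hsf1 at 12 h lies at 0.00, -0.27 and -0.58, while the values from 6 h to 12 h hardly differ.

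Over the 9 libraries, which form 3 groups and are thus not independent points, log2 CPM of Hspb1 followed Hsph1 (Pearson r = 0.937), ran against Hsf1 (r = -0.946) and had little linear relation to the Hspa1a and Hspa1b sum (r = 0.248). Hspa1a and Hspa1b had r = 0.993, and Dnajb1 had 0.916 with Hspa8 and 0.915 with Hsph1. Among 10121 other tested genes, those most like Hspb1 were Snrnp200, a spliceosomal helicase (r = 0.988), Hnrnpu, an RNA-binding protein (0.988), Mid1ip1 (0.986), Dusp6, an ERK phosphatase (0.986), and Strap (0.985), against a median r of -0.02 over all compared genes. Dusp6 averaged 169 CPM in vehicle, 430 CPM at 6 h and 168 CPM at 12 h. Most like the Hspa1a and Hspa1b sum were Egr1, an immediate early transcription factor, Magi3, Fgd6, Rbm25 and Smad3, a TGF-beta signal transducer, all at r = 0.998 (median -0.03). Egr1 averaged 49.8 CPM in vehicle, 323 CPM at 6 h and 802 CPM at 12 h. Among those most like Hspa8 were Tmem68 (0.993), Smad5 (0.992), Mfsd11 (0.984) and Foxk1 (0.984), with a median of -0.07. With 9 libraries in 3 groups many genes reach such values, and the likeness is a description of the group means.

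The other chaperones were read from 11 lists with 125 genes, of which 119 were in the tables and 103 were tested. The 16 untested genes in the tables had few reads, and 1 of them passed 1 CPM in any library. Of the 103 genes, 47 rose and 25 fell at 6 h against vehicle (median log2 fold change 0.18, against -0.03 over all genes), but 34 rose and 42 fell with upper-quartile scaling and 24 and 56 with no normalization. From 6 h to 12 h 17 rose and 37 fell (median -0.11, against 0.01 over all genes), in a comparison that called 25.3% of all tested genes higher and 25.8% lower. Without the 7 genes the counts over the remaining 96 were 41 and 24 at 6 h (median 0.12) and 14 and 33 from 6 h to 12 h (median -0.11). The rises at 6 h include Hspb9, Hspa1l, Hsf2bp and Dnajb3, which passed the filter only through 1 or both PMA groups. At 6 h against vehicle 37.8% of all tested genes were called higher and 39.0% lower, and at 12 h against vehicle 37.7% and 38.2%. Each list count below is to be read beside these shares and those of 12 h against 6 h above. The lists share genes. Below, values without a unit are log2 fold changes.

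**Figure D4:**
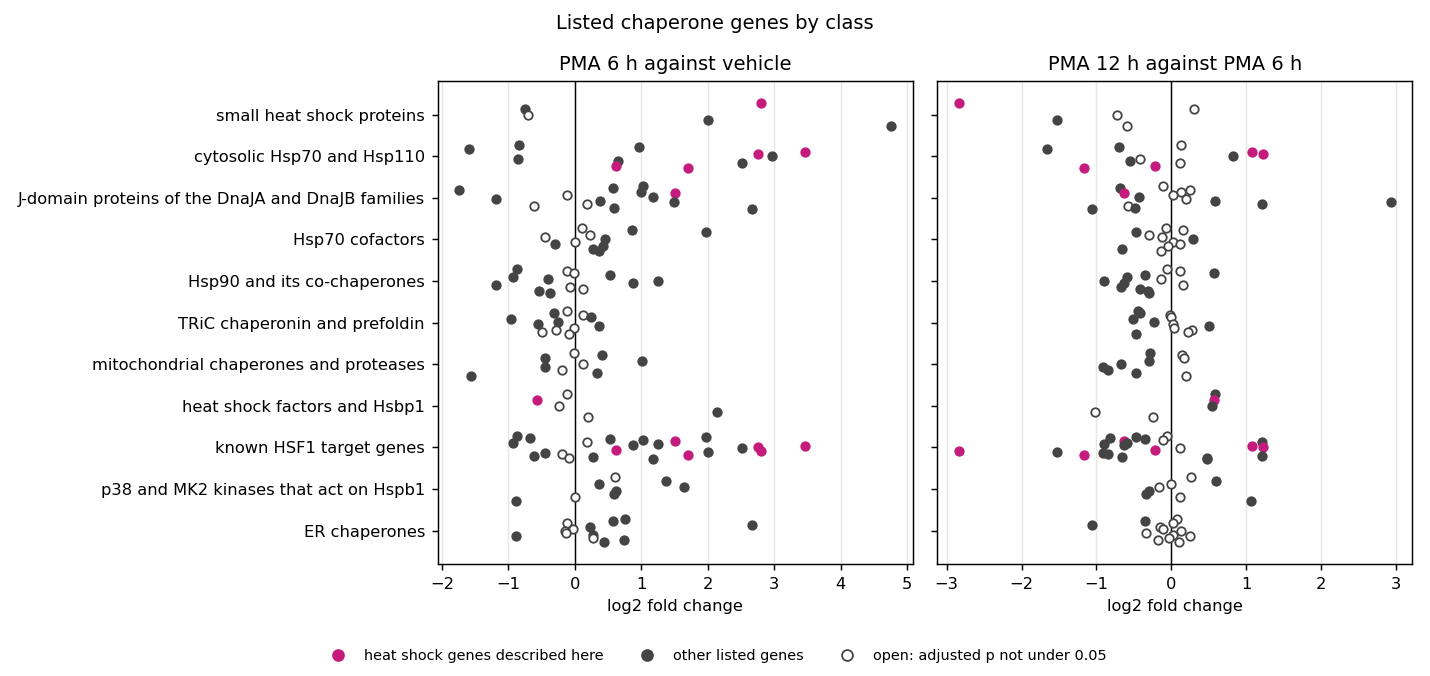
log2 fold changes of the 103 tested chaperone genes by list, at 6 h against vehicle and at 12 h against 6 h (TMM scaling). Magenta points are the 7 heat shock genes, grey points the other listed genes, open points those with adjusted p not under 0.05, and a gene on several lists appears in each. Hspb1 lies at 2.80 in the left panel and at -2.84 in the right panel, and the lists of Hsp90, mitochondrial and known Hsf1 target genes lie mostly below 0 from 6 h to 12 h.

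Of the other small heat shock proteins, Hspb8, a partner of Bag3 in selective autophagy, also rose at 6 h and fell from 6 h to 12 h. It averaged 31.2 ± 9.98 CPM in vehicle, 125 ± 16.6 CPM at 6 h and 43.4 ± 5.25 CPM at 12 h (SD, n = 3 each). It rose by 1.998 ± 0.22 at 6 h (adjusted p = 3.1e-05) and fell by 1.53 from 6 h to 12 h (adjusted p = 0.00043). The value at 12 h against vehicle was 0.47 ± 0.22 (adjusted p = 0.088), but was called higher with the DESeq2 Wald test (0.47, adjusted p = 0.015), with the replicate block (0.50, adjusted p = 0.047) and without vehicle replicate 1 (0.69, adjusted p = 0.0035). Hspb9 had 0, 3 and 1 reads in vehicle, 23, 18 and 45 at 6 h and 18, 16 and 15 at 12 h. It was called higher at both times against vehicle (adjusted p = 5.1e-06 and 4.3e-05). However, it passed the filter through the PMA groups alone, as did Hspa1l and Hsf2bp below, and Dnajb3 passed through the 12 h group alone. Hspb11, a transport protein of cilia despite its name, fell by 0.76 at 6 h (adjusted p = 0.0084). Altogether 3 of 5 tested small heat shock proteins rose and 1 fell at 6 h. The counts were 3 and 2 with upper-quartile scaling, no normalization, or without vehicle replicate 1 or PMA 6 h replicate 1. Hspb9 is among the 3, and a minimum count of 50 left 4 genes, of which 2 rose and 2 fell. Between the times 0 rose and 2 fell, Hspb1 and Hspb8.

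Of the 11 genes tested on the Hsp70 and Hsp110 list, 8 rose and 3 fell at 6 h (median 0.96). Those rises include Hspa1l, and a minimum count of 50 left 9 genes, of which 7 rose and 2 fell. From 6 h to 12 h 3 rose and 5 fell (median -0.22). At 12 h against vehicle 7 rose and 2 fell, or 5 and 3 with upper-quartile scaling and 4 and 5 without normalization. Leaving out the near-identical Hspa1a and Hspa1b, the counts were 6 and 3 at 6 h. They were then 5 and 2 at 12 h against vehicle and 1 and 5 from 6 h to 12 h. Hspa4l, an Hsp110 protein, was at 2.34 ± 0.889 CPM in vehicle, 13.5 ± 1.30 CPM at 6 h and 14.5 ± 3.68 CPM at 12 h (log2 fold changes against vehicle of 2.51 and 2.62, adjusted p = 7.8e-08 and 5.1e-08). Hspa4, its relative, rose by 0.65 at 6 h (adjusted p = 1.2e-06, but 0.12 and not called without normalization) and changed by -0.56 from 6 h to 12 h (adjusted p = 2.5e-05). Hspa14, a ribosome-associated Hsp70, was at 38.8 ± 5.95 CPM in vehicle, 12.9 ± 1.47 CPM at 6 h and 4.06 ± 0.500 CPM at 12 h (against vehicle -1.59 and -3.25, adjusted p = 2.1e-08 and 9.1e-12). Hspa13 rose by 0.96 at 6 h (adjusted p = 7.7e-07) and changed by -0.69 from 6 h to 12 h (adjusted p = 0.0001). Its call at 12 h against vehicle (0.27) was lost with upper-quartile scaling, the DESeq2 Wald test and limma-voom, among other alternatives. Hspa1l, the neighbour of Hspa1a, had 8, 7 and 4 reads in vehicle, 40, 24 and 42 at 6 h and 72, 61 and 35 at 12 h, a rise of 2.97 ± 0.42 at 6 h (adjusted p = 4.5e-06). Its rise from 6 h to 12 h (0.83, adjusted p = 0.042) was not called with no normalization, no filter or the replicate block. Leaving out certain single libraries ended that call too. Hspa1l overlaps Hspa1a in RefSeq's GRCr8 annotation, and the annotation behind these counts is not stated. Over all libraries, 1 read of Hspa1a was in the strand columns and set aside as ambiguous in the unstranded column.

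Among 14 J-domain proteins, 9 rose and 2 fell at 6 h (median 0.59), which became 7 and 4 with upper-quartile scaling and 5 and 5 with no normalization (below, with none). With limma-voom the counts were 8 and 3, as in the fit of only the groups compared, which tested 13 of these genes. Dropping vehicle replicate 2, vehicle replicate 3 or any library at 6 h gave 8 and 2. Over the following hours to 12 h 3 rose and 5 fell. Dnajb9, a J-domain protein of the endoplasmic reticulum, was at 21.5 ± 6.71 CPM in vehicle, 135 ± 3.69 CPM at 6 h and 64.6 ± 8.41 CPM at 12 h. This was a rise of 2.66 ± 0.20 at 6 h (adjusted p = 7e-07) and a change of -1.07 ± 0.19 from 6 h to 12 h (adjusted p = 0.00099). Dnaja3, a mitochondrial J-domain protein, fell to 21.9 ± 1.98 CPM at 6 h, against 73.0 ± 3.60 CPM in vehicle (-1.74, adjusted p = 5.1e-10). Dnajb4, a close relative of Dnajb1, took a different course, with 13.4 ± 0.883 CPM at 6 h against 11.8 ± 1.94 CPM in vehicle (0.18, adjusted p = 0.26, but -0.36 and called lower without normalization). It reached 30.9 ± 1.77 CPM at 12 h, a rise over 6 h of 1.21 ± 0.14 (adjusted p = 2e-06). Dnajb3 had 59, 75 and 66 reads at 12 h and 4, 10 and 16 at 6 h, a log2 fold change of 2.93 ± 0.43 (adjusted p = 2.6e-05). Over the 8, 5 and 2 reads in vehicle it was called higher at 6 h (1.49, adjusted p = 0.025). Upper-quartile scaling, no normalization and limma-voom each ended that call. So did dropping vehicle replicate 2, vehicle replicate 3, PMA 6 h replicate 2 or PMA 6 h replicate 3. Dnajb14 fell by 1.18 at 6 h (adjusted p = 0.0017), and Dnaja2 fell by 0.68 from 6 h to 12 h (adjusted p = 6e-07).

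Of 11 Hsp70 cofactors, 6 rose and 1 fell at 6 h, against 3 and 2 with upper-quartile scaling and 2 and 5 with none. The single fall was lost with DESeq2 size factors, the DESeq2 Wald test or the replicate block. It was also lost without vehicle replicate 1 or 2, without PMA 6 h replicate 1, 2 or 3 and without PMA 12 h replicate 1. Bag3, a nucleotide exchange factor that joins Hsp70 to Hspb8, was at 63.3 ± 3.36 CPM in vehicle, 250 ± 19.3 CPM at 6 h and 181 ± 9.67 CPM at 12 h. The change was 1.98 ± 0.08 at 6 h against vehicle (adjusted p = 3.7e-13) and -0.47 ± 0.08 from 6 h to 12 h (adjusted p = 8.1e-05). Bag2 was at 35.2 ± 4.27 CPM in vehicle, 63.6 ± 4.18 CPM at 6 h and 71.1 ± 2.85 CPM at 12 h (0.85 at 6 h, adjusted p = 4.2e-07). The changes of Bag6 (0.46) and St13 (0.42) at 6 h lost their calls without normalization, at -0.08 and -0.12. Stip1, which links Hsp70 to Hsp90, fell by 0.66 from 6 h to 12 h (adjusted p = 8.3e-07).

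Hsp90 and its co-chaperones were split. Of 13 genes 3 rose and 6 fell at 6 h (2 and 10 without normalization), and 1 rose and 8 fell from 6 h to 12 h (median -0.31). The stress-inducible Hsp90aa1 was at 45.9 ± 9.26 CPM in vehicle, 109 ± 8.79 CPM at 6 h and 58.3 ± 11.7 CPM at 12 h. It rose by 1.24 ± 0.16 at 6 h (adjusted p = 1.5e-05) and changed by -0.90 ± 0.16 from 6 h to 12 h (adjusted p = 0.00054). The constitutive Hsp90ab1 was at 3104 ± 184 CPM in vehicle, 5703 ± 54.7 CPM at 6 h and 3668 ± 59.4 CPM at 12 h. It rose by 0.88 ± 0.07 at 6 h (adjusted p = 4.7e-09) and changed by -0.64 ± 0.07 from 6 h to 12 h (adjusted p = 1.3e-06). The immunophilin co-chaperones Ppid and Fkbp4 fell at 6 h by 1.19 (adjusted p = 1.1e-09) and by 0.93 (adjusted p = 1.9e-09). From 6 h to 12 h Ptges3, the p23 co-chaperone, fell by 0.67 (adjusted p = 5.8e-07) and Cdc37l1 rose by 0.56 (adjusted p = 0.0002).

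Of 12 subunits of the TRiC chaperonin and prefoldin, which fold actin and tubulin, 2 rose and 4 fell at 6 h (0 and 8 with upper-quartile scaling, 0 and 11 with none). Without vehicle replicate 1, 2 or 3, PMA 6 h replicate 1 or 2 or PMA 12 h replicate 1, 1 rose. From 6 h to 12 h 1 rose and 5 fell, or 0 and 5 without PMA 12 h replicate 3 and 2 and 5 without PMA 6 h replicate 2. Cct6a was at 443 ± 8.58 CPM in vehicle, 229 ± 18.3 CPM at 6 h and 160 ± 11.9 CPM at 12 h (against vehicle -0.95 and -1.47, adjusted p = 4.4e-09 and 1.8e-11). Cct8 fell by 0.56 and Cct3 by 0.32 at 6 h (adjusted p = 5.4e-06 and 0.00061). Between the times Tcp1 fell by 0.47 (adjusted p = 9.1e-05) and Cct2 by 0.45 (adjusted p = 2.7e-05). Pfdn1 had 0.37 at 6 h (adjusted p = 0.047) and -0.17 without normalization. That call was also lost with upper-quartile scaling, limma-voom, no filter, a minimum count of 50 or the replicate block (adjusted p = 0.069), and when each of the 6 libraries named above for the list at 6 h was left out in turn.

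Of 9 mitochondrial chaperones and proteases, 3 rose and 3 fell at 6 h (1 and 5 with upper-quartile scaling, 1 and 7 with none). Later, 0 rose and 6 fell from 6 h to 12 h (1 and 4 without PMA 12 h replicate 2). The mitochondrial Hsp60 Hspd1 was at 704 ± 31.0 CPM in vehicle, 517 ± 10.99 CPM at 6 h and 274 ± 9.52 CPM at 12 h (against vehicle -0.45 and -1.36, adjusted p = 1.4e-05 and 1.1e-11). Its partner Hspe1 fell by 0.85 (adjusted p = 4.7e-06) and the mitochondrial Hsp70 Hspa9 by 0.67 (adjusted p = 3.9e-07) from 6 h to 12 h. The mitochondrial Hsp90 Trap1 fell by 1.56 at 6 h (adjusted p = 3e-11). Of the nucleotide exchange factors of Hspa9, Grpel2 rose by 1.01 (adjusted p = 1.7e-07) and Grpel1 fell by 0.45 (adjusted p = 0.00066) at 6 h.

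Of the 5 tested genes on the list of heat shock factors and Hsbp1, which includes Hsf1, 1 rose and 1 fell at 6 h. The counts were 1 and 3 with upper-quartile scaling or no normalization. The rise was Hsf2bp, which passed the filter through the PMA groups alone. A minimum count of 50 left 3 genes, of which 0 rose and 1 fell at 6 h. At 12 h against 6 h 3 rose and 0 fell. Besides Hsf1, Hsf2, a related factor, was at 25.0 ± 3.79 CPM at 12 h against 17.2 ± 1.34 CPM at 6 h (0.54 ± 0.14, adjusted p = 0.0032). Hsbp1, which binds Hsf1 trimers, was at 170 ± 1.23 CPM at 12 h against 114 ± 6.56 CPM at 6 h (0.58 ± 0.07, adjusted p = 5.9e-06). Hsf2bp, a partner of Hsf2 known from meiosis, had 46, 26 and 31 reads at 6 h, against 13, 17 and 4 in vehicle (2.14 ± 0.46, adjusted p = 0.00044).

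On the list of 23 tested genes known as Hsf1 targets, which holds 6 of the 7 genes, 15 rose and 5 fell at 6 h (median 0.88; 12 and 9 without normalization). Between 6 h and 12 h 6 rose and 14 fell (median -0.47). Serpinh1, the collagen chaperone Hsp47, ran against most of the list. It was at 226 ± 26.5 CPM in vehicle, 148 ± 22.2 CPM at 6 h and 341 ± 18.4 CPM at 12 h, with -0.61 ± 0.11 at 6 h against vehicle (adjusted p = 7.6e-05) and 1.21 ± 0.11 from 6 h to 12 h (adjusted p = 2.5e-07).

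Of 8 tested genes for p38 kinases, MK2 and its relatives and protein kinase D, 5 rose and 1 fell at 6 h. The counts were 4 and 2 with upper-quartile scaling and 2 and 3 with no normalization. From 6 h to 12 h 2 rose and 2 fell. Mapkapk2, which encodes MK2, was at 87.6 ± 4.62 CPM in vehicle, 274 ± 13.2 CPM at 6 h and 244 ± 19.7 CPM at 12 h (against vehicle 1.64 ± 0.08 and 1.47 ± 0.08, adjusted p = 3.7e-12 and 1.8e-11). Its transcript thus stayed above vehicle at 12 h, when that of Hspb1 was not called against vehicle. Mapk13, the delta form of p38, was at 166 ± 16.4 CPM in vehicle, 431 ± 15.4 CPM at 6 h and 651 ± 90.6 CPM at 12 h (against vehicle 1.38 and 1.97, adjusted p = 8.5e-10 and 9.7e-12). Prkd3, a protein kinase D, fell to 34.6 ± 3.34 CPM at 6 h, against 63.8 ± 5.34 CPM in vehicle (-0.88, adjusted p = 8.5e-07), and rose by 1.06 from 6 h to 12 h (adjusted p = 4.8e-07). Mapkapk3 and Mapkapk5 had 0.62 and 0.59 at 6 h (adjusted p = 2.1e-06 and 2.5e-05) and were not called without normalization, at 0.08 and 0.05. Phosphorylation of Hspb1 was not measured.

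The chaperones of the endoplasmic reticulum, which answer to a separate stress pathway, gave 7 rising and 1 falling of 13 at 6 h (4 and 2 with upper-quartile scaling, 2 and 5 with none). Without vehicle replicate 1 the counts were 5 and 4, and 5 to 8 rose and 0 fell without vehicle replicate 2 or 3, PMA 6 h replicate 1, 2 or 3 or PMA 12 h replicate 3. Later, at 12 h against 6 h, 0 rose and 2 fell. Besides Dnajb9, Calr rose by 0.75 ± 0.10 at 6 h (adjusted p = 1.8e-06). Canx had 0.57 ± 0.08 (adjusted p = 4.5e-06; 0.04 and not called without normalization) and Sdf2l1 had 0.74 ± 0.20 (adjusted p = 0.0054; 0.21 and not called without normalization). Canx fell by 0.36 from 6 h to 12 h (adjusted p = 0.0013). Pdia4 was at 138 ± 15.9 CPM at 6 h, against 256 ± 105 CPM in vehicle, with an adjusted p of 0.033 that was lost under 8 alternatives.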

How the data were processed

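Each of the 9 libraries has a deposited table of counts, whole reads per gene, which per the submitters' processing notes came from STAR 2.7.5b and the rn6 genome. Which gene annotation the authors used is not stated in the labels or file headers. The unstranded column was used. It does not part overlapping genes by strand, and reads on several genes or places were counted apart (5.95% to 7.74% multimapping, 0.526% to 0.740% ambiguous). A further deposited table of values normalized by the authors was not used. Libraries held 13601635 to 19001819 reads in genes, which sets the counting precision.

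The analysis ran in edgeR 4.0.16 under R 4.3.3: filterByExpr (minimum count of 10) left 10128 genes, library totals were scaled by TMM, and a robust quasi-likelihood model with group as its only term was fitted to all 9 libraries. The 3 pairwise comparisons were tested by its quasi-likelihood F test, with p adjusted over all tested genes (Benjamini-Hochberg) and called under 0.05. Fold changes are the first-named group over the second, and levels are CPM of the scaled totals. The Hspa1a and Hspa1b sum was tested in a fit with both rows merged. Correlations used log2 CPM with a prior count of 2. Alternatives were other scalings, filters, limma 3.58.1 (voom), DESeq2 1.42.0, a fit of only the groups compared, a replicate block, summed strand columns and leaving out each library. The test was checked on simulated data.

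The 7 genes and the chaperone lists were chosen with earlier results of these data known. Named from each list were up to 4 tested genes with the largest absolute log2 fold change among those called at 6 h against vehicle, and up to 2 more at 12 h against 6 h. The 5 genes with the highest correlation to Hspb1, to the Hspa1a and Hspa1b sum and to Hspa8 were also named, except 1 that is not reported here.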

Additional observations from a re-analysis of the deposited data

Results flagged for a closer look

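These results are listed because the effects at 2 times of PMA, each against the same vehicle libraries, differed from one another: the difference was tested directly as 12 h against 6 h by edgeR's quasi-likelihood F test. Such a difference was called for 51.1% of all tested genes. Hspb1 differed by -2.84 on the log2 scale, Hsph1 by -1.16, Dnajb1 by -0.627 and Hspa8 by -0.218, and all 4 were lower at 12 h than at 6 h. Hspa1a differed by 1.08, Hspa1b by 1.22, their sum by 1.17 and Hsf1 by 0.573, and these were higher at 12 h than at 6 h. In each of these genes all 3 libraries at 12 h lay on the same side of all 3 libraries at 6 h, which was so for 58.0% of all tested genes. The call for Hspa8 was lost when any of 5 of the 6 PMA libraries was left out.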

How the results depend on the processing

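Of 705 recomputed values, 687 kept their direction and their side of the threshold or, for counts, stayed within 1.5 times. With no normalization beyond library totals, Hspa8 at 6 h against vehicle was 0.087, and at 12 h against vehicle Hspb1 was -0.63, Hsph1 -0.032, Hspa8 -0.17 and Hsf1 -0.58, with 3 of the 7 genes higher and 2 lower, and over all genes 2277 were called higher at 6 h, and 2120 higher and 6021 lower at 12 h. With upper-quartile scaling Hspa8 at 12 h was 0.14 and Hsf1 -0.27, with 1 of the 7 genes lower. These settings shift all genes together, as the medians of all genes show. Leaving out 1 library moved Hspa8 at 12 h against 6 h between -0.30 and -0.17, and ended its call without PMA 6 h replicate 1, 2 or 3 or PMA 12 h replicate 1 or 3, with fewer libraries in the fit. No other call of the 7 genes was lost that way.

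With a replicate block, 3765 genes were called higher and 3885 lower at 6 h, 3742 and 3797 at 12 h, and 2452 and 2503 from 6 h to 12 h, and no call of the 7 genes changed. Same-numbered libraries had correlations of their deviations of -0.115 to 0.027, not every library correlated best with its own number, and the labels tie the numbers to nothing, so the block pairs by number only. With 3 libraries a group, differences near the SE could not be resolved. The SE was about 0.1 for most of the 7 genes, 0.20 to 0.21 for Hspb1, and larger for several listed genes. No protein level, phosphorylation or Hsf1 binding was measured.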
